A study of Mus musculus with 6 samples.

Results

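The genes of 8 digestive enzymes of the intestinal brush border (Alpi, Sis, Lct, Anpep, Dpp4, Treh, Enpep and Mme) were taken by name from the 31319 genes of a single-nucleus RNA sequencing series, and all 8 were found under their Ensembl identifiers. They were followed over the 15 deposited clusters of nuclei and between the 2 culture media, sample by sample. The material was organoids of the jejunum from C57BL/6 mice of 8 to 12 weeks, which are cultures of crypt epithelium. In 3 samples the organoids had received medium conditioned by quiescent, serum-deprived mouse embryonic fibroblasts (QCM), and in 3 samples medium conditioned by senescent fibroblasts of the same kind (SCM). Per the study's methods senescence had been induced by X-rays or doxorubicin, and the labels do not say which was used for these samples. Both groups were organoids in conditioned medium, so that no sample without fibroblast medium entered these comparisons. The question behind the design was whether factors secreted by senescent cells alter the intestinal epithelium.

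The brush border is the carpet of microvilli on the luminal face of absorptive enterocytes. Its membrane carries the last enzymes of digestion: disaccharidases split sugars, peptidases split small peptides, and intestinal alkaline phosphatase removes phosphate groups, among them those of bacterial lipopolysaccharide. These enzymes are known to rise as cells leave the crypt and mature along the villus, and several of them serve as markers of mature enterocytes.

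The 6 samples held 38154 nuclei, between 430 and 10833 per sample, with 4071926 to 41035733 unique molecular identifiers (UMIs, counted molecules) per sample. Of these libraries 2 stood apart. QCM replicate 1 had a median of 8260 UMIs per nucleus against 1578 to 3156.5 in the others, and ribosomal protein genes took 14.2% of its UMIs against 2.64% to 10.4%. SCM replicate 1 had only 430 nuclei, and 175 of their barcodes (40.7%) also occurred in QCM replicate 1, whereas every other pair of samples shared 0 to 36. The labels name no shared animal, culture or batch, so the p-values measure only the spread between these samples, which may be technical. Most of the main estimates are also given without each of these 2 libraries.

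Cluster 8 (1416 nuclei) was the cluster with the strongest signal of the enzymes. Of 7 enterocyte markers that are not among the 8 genes, all 7 were higher in cluster 8 than in the remaining nuclei in 6 of 6 samples, with median folds from 1.40 for Fabp2, a fatty acid binding protein, to 4.36 for Apoa1, an apolipoprotein of chylomicrons. Cluster 8 is therefore called enterocyte-like. Over the pooled nuclei its summed level of these markers was the highest of the 15 clusters (5001 CPM), followed by cluster 1 (4439 CPM). Of the 7, 4 reached 5 CPM and 2-fold the remaining nuclei in cluster 8 and 5 did so in cluster 1, where 3 of 5 Paneth markers did too against 0 of 5 in cluster 8. It held 4.01% ± 0.88 (SD, n = 3) of nuclei in QCM and 2.88% ± 1.54 (n = 3) in SCM, a difference with p = 0.4 by an exact two-sided permutation test, whose smallest possible p is 0.1. The number of nuclei of cluster 8 was between 187 and 395 in QCM and was 11, 77 and 493 in SCM replicates 1, 2 and 3. Since clusters had been made from the same counts, levels across clusters are a description and carry no test.

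Levels are given as CPM, UMIs of the summed nuclei scaled to a common library total, and are compared within a gene and not between genes, because transcript length and the share of unspliced RNA differ. All 8 enzymes had their highest mean level in cluster 8. Sis, Lct, Enpep and Mme were highest there in 6 of 6 samples, Dpp4 in 5, Treh in 3, Alpi in 2 and Anpep in 2.

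**Figure D1:**
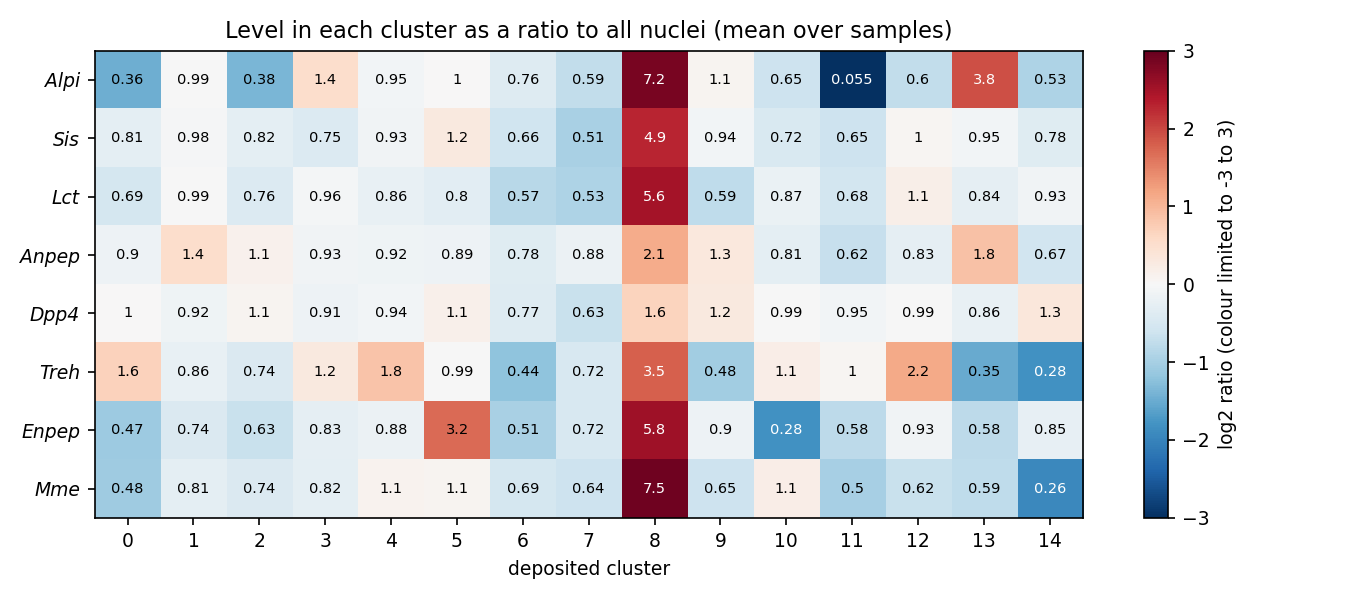
Level of each enzyme gene in each deposited cluster, as the ratio of its CPM in the cluster to its CPM in all nuclei of the same sample, averaged over the samples in which the cluster had 10 or more nuclei. Rows are genes, columns are clusters and colour is the log2 ratio, limited to -3 to 3. Column 8 is red for all 8 genes, and the strongest red cells outside it are Alpi in cluster 13 (mean ratio 3.84 on 19 UMIs), Enpep in cluster 5 (3.24 on 395 UMIs) and Treh in cluster 12 (2.21 on 7 UMIs).

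Sis, Lct and Treh code for the disaccharidases. Sis, sucrase-isomaltase, splits sucrose and the branch points of starch fragments. In cluster 8 it reached 1947, 1754 and 1739 CPM in the QCM samples and 837, 2394 and 1816 CPM in the SCM samples, here and throughout in the order of replicates 1, 2 and 3. Outside cluster 8 it stood at 432, 371 and 473 CPM in QCM and at 83.5, 295 and 406 CPM in SCM, so that the folds of cluster 8 over the rest ran from 3.68 to 10.0 with a median of 4.62. No sample overlapped between the 2 compartments. In the order of clusters the mean of Sis, 1748 ± 508 CPM (SD over 6 samples), lay beyond its spread from the next, 520 ± 247 CPM in cluster 5, and the clusters after it differed from their neighbours by less than their spread down to cluster 7 at 233 ± 137 CPM.

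Lct, lactase, splits milk sugar and is known to decline after weaning. It was at 110, 20.0 and 25.9 CPM in cluster 8 of the QCM samples and at 49.7, 35.7 and 26.1 CPM in those of SCM, against 38.6, 3.63 and 3.40 CPM and 4.30, 5.25 and 3.10 CPM in the other nuclei. Every sample was higher in cluster 8, but the value outside cluster 8 in QCM replicate 1 was above the value inside it in 4 of the 5 other samples. In the 5 samples with at least 10 UMIs in cluster 8 the fold was 2.85 to 8.41. Treh, trehalase, which splits the fungal and insect sugar trehalose, was the sparsest of the enzymes with 654 UMIs in all nuclei. Its mean in cluster 8 was 10.5 ± 7.0 CPM over 6 samples, on 97 UMIs, and did not differ beyond that spread from cluster 12 at 8.04 ± 8.29 CPM. Only QCM replicate 1 held 10 or more Treh UMIs in cluster 8, where the fold over the other nuclei was 2.49.

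Alpi is the intestinal alkaline phosphatase. In cluster 8 it was at 28.9, 18.8 and 40.7 CPM in QCM and at 8.28, 109 and 28.3 CPM in SCM, and in the other nuclei at 16.6, 1.28 and 5.31 CPM and at 2.28, 2.83 and 4.91 CPM. All 6 samples were higher in cluster 8, and the fold ranged from 1.75 in QCM replicate 1 to 38.5 in SCM replicate 2 over the 5 samples with at least 10 UMIs. The high value of SCM replicate 2 rested on few nuclei: 18 of its 77 nuclei of cluster 8 held an Alpi UMI and the 5 highest of them held 40 of 67 UMIs (59.7%). Cluster 13 followed at 35.0 ± 25.7 CPM on 19 UMIs from 4 samples, was the highest cluster in 3 of them and did not differ from cluster 8 beyond the spread, whereas the step down to cluster 3 (7.75 ± 6.85 CPM) did. Akp3, the paralog next to Alpi, had only 21 UMIs and was not tested. Over 1678 aligned bases the longest coding transcripts of Alpi and Akp3 were 83.1% identical, and they shared no identical stretch of 90 bases.

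For Sis, Lct and Alpi the 250 bases before the RefSeq start (GRCm38.p6) are shown. They hold letters of transcription factor motifs known from intestinal genes, as do those of Dpp4 and Treh, which are not shown. Like all 8 enzymes these 3 were highest on average in cluster 8. The motifs searched on both strands were GTTAAT for the factor HNF1, TTTATG for the factor CDX, CAAAGTCC for the factor HNF4 and AGATAA for the factor GATA, none of which overlaps another in these 3, and matches are in capitals. The sequences read 5′ to 3′ on the gene's own strand, which is the minus strand for all 3, and lie at chr3:72967864-72968113 (Sis), chr1:128328319-128328568 (Lct) and chr1:87101607-87101856 (Alpi).
Sis: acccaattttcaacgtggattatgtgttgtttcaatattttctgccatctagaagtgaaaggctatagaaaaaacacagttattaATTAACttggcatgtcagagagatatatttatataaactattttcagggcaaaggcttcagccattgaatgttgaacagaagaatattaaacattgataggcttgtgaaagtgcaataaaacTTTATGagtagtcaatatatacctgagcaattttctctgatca
Lct: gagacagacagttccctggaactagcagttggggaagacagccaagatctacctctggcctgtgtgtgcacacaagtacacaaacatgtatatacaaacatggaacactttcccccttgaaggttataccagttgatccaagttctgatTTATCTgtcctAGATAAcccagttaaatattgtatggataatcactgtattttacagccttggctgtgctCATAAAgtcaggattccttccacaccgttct
Alpi: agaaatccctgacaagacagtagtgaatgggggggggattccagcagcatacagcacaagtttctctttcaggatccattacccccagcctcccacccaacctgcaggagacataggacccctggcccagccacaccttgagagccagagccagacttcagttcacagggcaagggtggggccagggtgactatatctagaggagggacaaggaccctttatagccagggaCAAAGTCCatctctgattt

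The Sis promoter held the HNF1 letters on the reverse strand from base -165 to -160 and the CDX letters from -43 to -38, counted back from the start. The Lct promoter held GATA letters on both strands at -101 and -90 and CDX letters on the reverse strand at -31, and the Alpi promoter held the HNF4 letters at -19. All 8 enzymes matched the RefSeq table, Mme with 3 starts. Dpp4 held GATA letters at -32, and Treh held HNF4 letters at -227 and, on the reverse strand, at -70. Anpep, Enpep and the 3 Mme starts held none of these motifs. Over windows of 300 bases (250 before to 50 after the start) the HNF1 letters occurred in 1 of the 8 enzymes, CDX in 2, HNF4 in 2 and GATA in 2, against 7.1%, 11.9%, 1.42% and 11.2% of 32851 promoters of the same length. A match is a description of letters only.

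Anpep, Dpp4, Enpep and Mme code for peptidases. Enpep, aminopeptidase A, removes acidic residues from the start of peptides such as angiotensin II. In cluster 8 it was at 62.7, 78.7 and 64.8 CPM in QCM and at 58.0, 156 and 75.3 CPM in SCM, against 20.1, 18.0 and 16.7 CPM and 4.56, 9.96 and 14.3 CPM in the other nuclei. The lowest value in cluster 8 was above the highest value outside it. Like Alpi, Enpep had a second cluster near the first: cluster 5 (47.0 ± 11.1 CPM over 6 samples, 395 UMIs) was among the first 2 clusters in 6 of 6 samples, did not differ from cluster 8 (82.5 ± 36.7 CPM) beyond the spread and lay beyond it from cluster 9 (17.3 ± 11.5 CPM).

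Mme, neprilysin, an endopeptidase also known as CD10, was at 186, 77.5 and 88.9 CPM in cluster 8 in QCM and at 199, 180 and 76.1 CPM in SCM. Outside it stood at 45.1, 8.54 and 11.5 CPM and at 12.7, 10.2 and 9.03 CPM. The compartments did not overlap, the folds ran from 4.13 to 17.7 (median 8.75), and the next cluster, 4, was at 22.3 ± 15.7 CPM, beyond the spread from 135 ± 59 CPM in cluster 8.

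Dpp4, which removes dipeptides from peptides including the incretin GLP-1, was the flattest of the 8 over clusters. Its level in cluster 8 was 191, 238 and 208 CPM in QCM and 108, 247 and 236 CPM in SCM, against 85.0, 165 and 124 CPM and 99.5, 134 and 147 CPM outside, a fold of 1.08 to 2.24. Its mean of 205 ± 52 CPM did not differ beyond the spread from 165 ± 40 CPM in cluster 9. The Dpp4 gene overlaps Gm13561 on the opposite strand, which had 5511 UMIs against 17708 of Dpp4, and Treh overlaps Phldb1 on the opposite strand with 1082 UMIs against 654 of Treh. Anpep overlaps Gm44974 on the same strand (274 UMIs against 3526) and Enpep overlaps Gm42628 on the opposite strand (3 UMIs), so that these counts are uncertain where reads of 2 genes could be split. Anpep, aminopeptidase N (CD13), was at 45.5 ± 26.7 CPM in cluster 8, at 42.3 ± 30.4 CPM in cluster 13 and at 32.1 ± 20.3 CPM in cluster 1, which do not differ beyond their spread. It was lower inside cluster 8 (16.6 CPM on 2 UMIs) than outside (21.5 CPM) in SCM replicate 1 and 1.88 to 4.38 times higher inside in the other 5 samples.

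**Figure D2:**
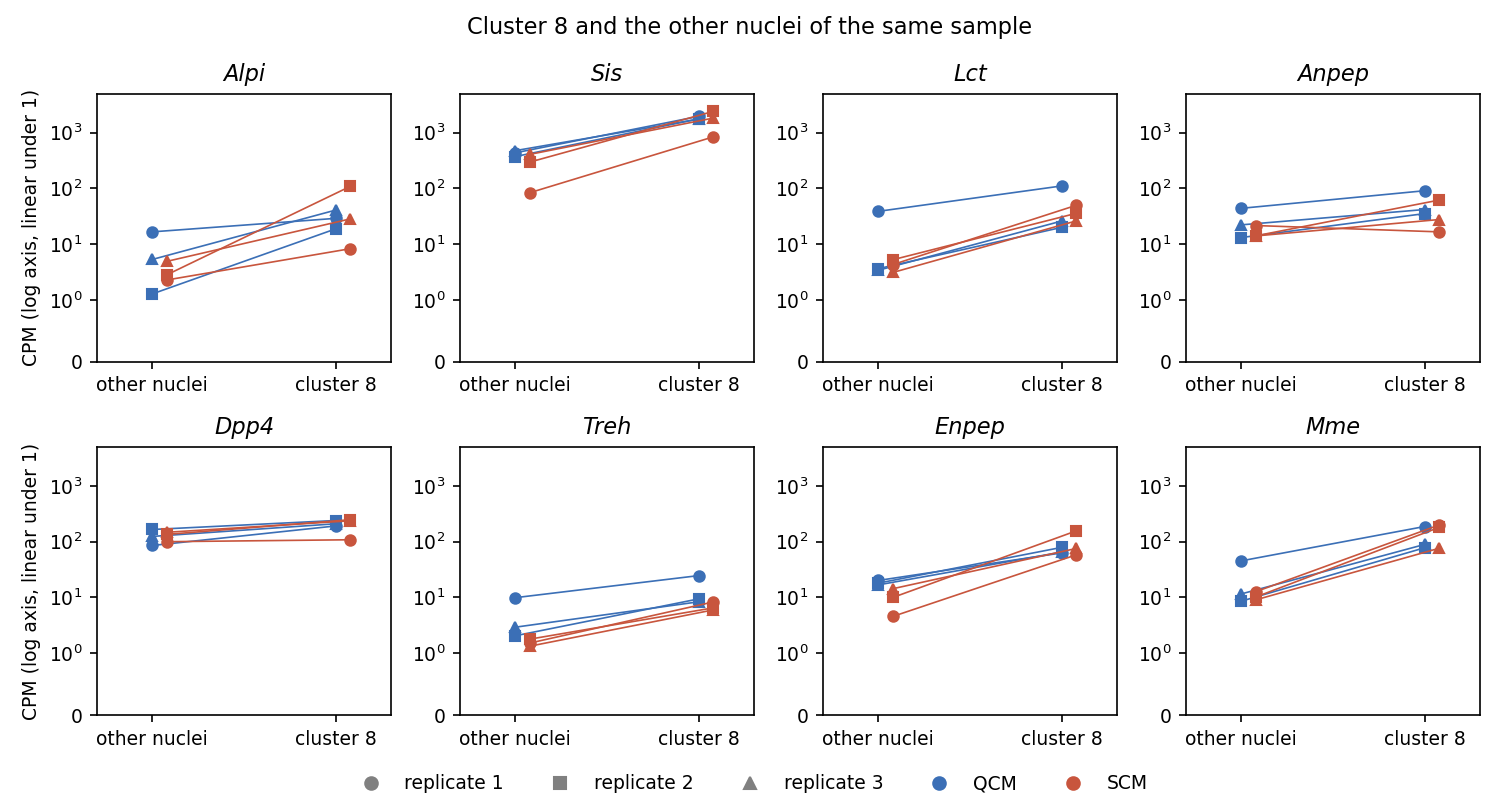
CPM of each enzyme gene in the nuclei outside cluster 8 and in cluster 8 (log axis, linear under 1 CPM), with a line joining the 2 values of a sample, QCM in blue and SCM in red. All lines rise from left to right except that of Anpep in SCM replicate 1, and the lines of Dpp4 are the flattest.

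Pooled over the samples, most molecules of the enzymes nevertheless lay outside cluster 8, which held between 8.07% (Dpp4) and 25.7% (Mme) of each gene's UMIs. In single samples the share ran from 2.30% (Anpep in SCM replicate 1, 2 UMIs) to 54.0% (Alpi in SCM replicate 2, 67 UMIs). A level was also read in cluster 11, a small cluster led by tuft cell markers, a chemosensory type that should lack these enzymes. Relative to all nuclei of the same sample, Sis was at 0.65 ± 0.07 and Dpp4 at 0.95 ± 0.18 there (5 samples, 440 and 177 UMIs), Enpep at 0.58 ± 0.45 and Mme at 0.50 ± 0.33, whereas Alpi was at 0.05 ± 0.12 on 2 UMIs. There were 0.12 ± 0.02 Dpp4 UMIs per Sis UMI in cluster 8 (6 samples) and 0.47 ± 0.25 in cluster 11 (5 samples), which lay apart, whereas Enpep UMIs per Sis UMI (0.048 ± 0.015 and 0.038 ± 0.031) and Lct UMIs per Sis UMI (0.029 ± 0.023 and 0.034 ± 0.058) differed by less than their spread. How much of the level outside cluster 8 was free RNA was not tested.

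Within cluster 8 UMIs of several enzymes were found in the same nucleus, more often where libraries were deeper. In QCM replicate 1, with a median of 11314 UMIs per nucleus of cluster 8, 86.1% of nuclei held UMIs of 3 or more of the 8 genes. The share was 23.3% in QCM replicate 2 and 19.7% in QCM replicate 3, and for SCM it was 54.5%, 45.5% and 18.9%, with medians of 1941 to 7936 UMIs. In cluster 11 the shares were 1.16% to 4.29% in 4 samples and 45.2% in QCM replicate 1. At least 1 nucleus of cluster 8 held UMIs of all 8 enzymes in QCM replicate 1 and in SCM replicate 2.

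The UMIs of the 8 enzymes were also summed. This sum weighs Sis most, with 63474 UMIs, then Dpp4 with 17708, and at most 3536 (Mme) for any other. The sum was compared by its pattern over the 15 clusters (Pearson correlation of log2(CPM + 1), a description over clusters that share libraries). It was most like Slc5a1 (r = 0.992), the glucose and galactose transporter SGLT1 of the same membrane. Then came Mttp (0.967), which loads lipid onto apolipoprotein B, Slc11a2 (0.959), an iron transporter, Dgat1 (0.946), which makes triglyceride, Maoa (0.939), a monoamine oxidase, Cyp4f16 (0.938), 4931406C07Rik (0.935) and Abcg5 (0.920), a sterol exporter. Slc5a1, Mttp, Slc11a2 and Abcg5 were also among the first 8 of 12685 genes over 81 points of sample and cluster. Among the enzymes themselves, over the 15 clusters, Sis was most like Mme (r = 0.887) and Enpep most like Sis (0.872). Lct and Treh were most like each other (0.927), and Mme and Anpep most like Lct (0.892 and 0.915). Alpi was most like Anpep (0.894), and Dpp4 had the weakest best partner over these clusters, Sis (0.662). Over the 81 points the weakest best partner was instead that of Anpep, Lct (0.388), with Dpp4 and Sis at 0.580. There Sis was most like Enpep (0.591), Alpi most like Lct (0.594) and Lct most like Mme (0.725).

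The media were then compared over all nuclei of a sample, in which fewer cells of a type and less RNA per cell cannot be told apart. Sis was at 533, 419 and 542 CPM in QCM and at 106, 358 and 477 CPM in SCM. The low value was that of the library of 430 nuclei, and the other 2 SCM samples fell on either side of the lowest QCM sample. Lct was at 43.4, 4.20 and 4.62 CPM in QCM and at 5.65, 6.16 and 4.25 CPM in SCM, and Treh at 10.8, 2.31 and 3.21 CPM in QCM and at 1.72, 1.92 and 1.57 CPM in SCM. For Lct all but QCM replicate 1 lay between 4.20 and 6.16 CPM, and for Treh every SCM sample was below every QCM sample.

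Alpi was at 17.4, 1.89 and 7.23 CPM in QCM and at 2.46, 5.96 and 6.08 CPM in SCM, with the lowest and the highest sample both in QCM. Among the peptidases, Enpep was at 22.9, 20.1 and 19.3 CPM in QCM and at 6.14, 14.3 and 17.4 CPM in SCM, without overlap. Mme was at 54.5, 10.95 and 15.7 CPM in QCM and at 18.2, 15.2 and 12.4 CPM in SCM. Anpep was at 46.9, 13.9 and 23.2 CPM in QCM and at 21.4, 15.5 and 14.7 CPM in SCM, and Dpp4 at 92.0, 167 and 128 CPM in QCM and at 99.7, 138 and 151 CPM in SCM. In Mme and Anpep, as in Alpi, Lct and Treh, QCM replicate 1 was the highest of the 6 samples, at 2.92 (Alpi) to 9.40 (Lct) times the median of the other 5. For Dpp4 it was the lowest.

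**Figure D3:**
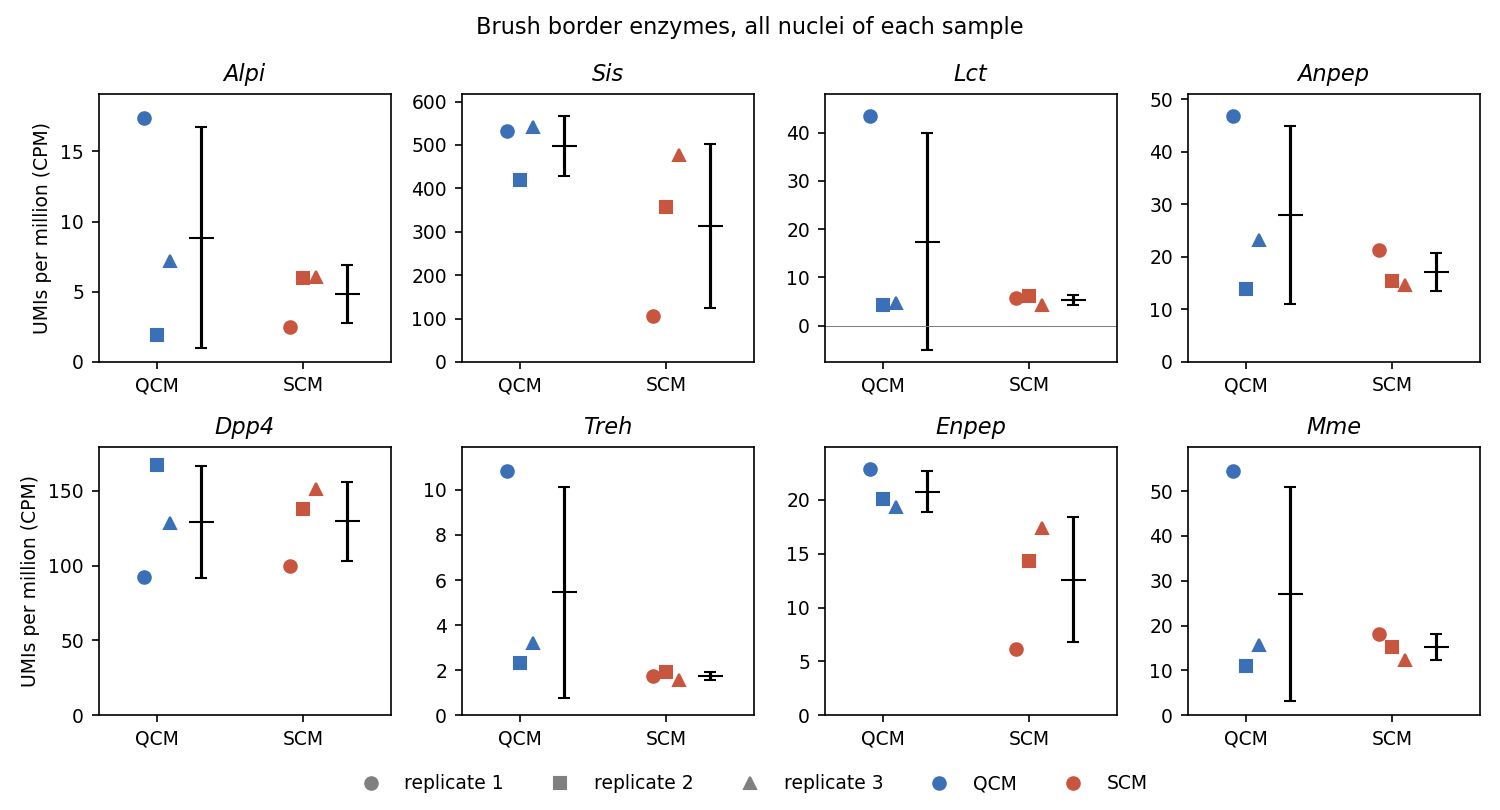
CPM of each enzyme gene over all nuclei of each sample, QCM in blue and SCM in red, with a mark for each replicate number and the mean ± SD of 3 samples in black. Enpep and Treh show no overlap between the media, and the circle of QCM replicate 1 is far above all others for Lct, Mme, Anpep, Treh and Alpi.

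None of the 8 enzymes was called by edgeR's quasi-likelihood test with Benjamini-Hochberg adjustment, and 0 of 19046 genes (0%) were called at an adjusted p under 0.05. DESeq2 called 20 genes, none of them an enzyme, and voom with limma called 0, while 866 genes (4.55%) had an unadjusted p under 0.05 in edgeR. Of the enzymes 1 did, Treh, with a log2 ratio of SCM to QCM of -1.92 ± 0.68 (SE; adjusted p = 0.927 by the same edgeR test). The estimates of all 8 were below 0 (51.4% of all genes were), at -2.03 ± 0.96 for Lct, -1.12 ± 0.63 for Mme, -1.08 ± 0.78 for Alpi, -0.97 ± 0.49 for Anpep, -0.85 ± 0.38 for Enpep, -0.83 ± 0.51 for Sis and -0.12 ± 0.23 for Dpp4. Their median was -1.03 against -0.01 over all genes tested. Enpep and Treh, lower in SCM in every sample, are 2 of 8, against 2.09% of all genes without overlap in that direction and 7.08% in either.

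Of these negative estimates, those of Lct, Mme, Alpi, Anpep and Treh leaned on QCM replicate 1. Without it Lct (0.23), Mme (0.13) and Alpi (0.09) had estimates above 0, Anpep was at -0.18 and Treh at -0.71, and the median of the 8 was -0.20. Sis and Enpep were at -0.63 each, and without SCM replicate 1 they were at -0.41 and -0.55. Dpp4 was at -0.21 without QCM replicate 1 and at 0.051 without SCM replicate 1. In the latter fit Alpi was at -0.81, Lct at -2.05 and Anpep at -1.12. With both libraries left out, that is in replicates 2 and 3 alone, Sis was at -0.24 ± 0.29 and Enpep at -0.35 ± 0.21. Without the nuclei of SCM replicate 1 that share a barcode with QCM replicate 1 no estimate of the 8 changed sign. With the ribosomal protein share of the sample as a covariate Alpi (1.17), Lct (0.55), Mme (0.51) and Anpep (0.24) were above 0. Depth and ribosomal share moved with this library, and their part in the result was not tested.

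**Figure D4:**
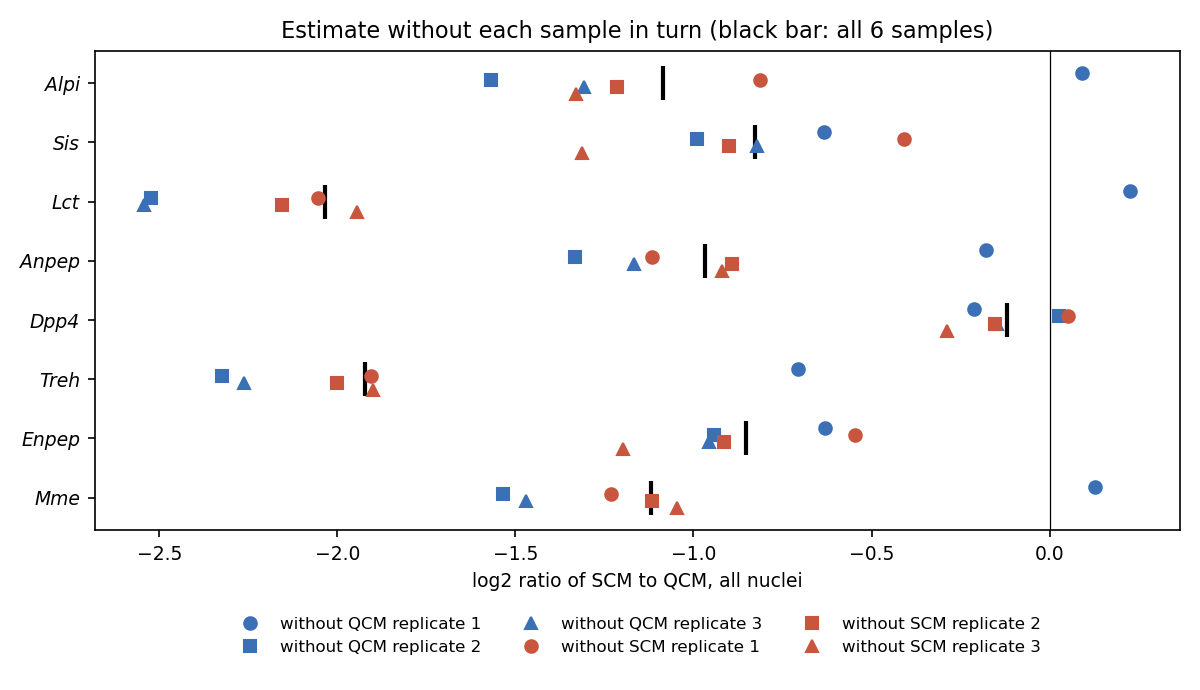
Log2 ratio of SCM to QCM over all nuclei for each enzyme gene, estimated by edgeR with all 6 samples (black bar) and without each sample in turn (blue, a QCM sample left out; red, an SCM sample left out; the shape gives the replicate number). The blue circle, without QCM replicate 1, is to the right of 0 for Lct, Mme and Alpi and the furthest right for Anpep and Treh, while Sis and Enpep stay left of 0 throughout.

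Markers of other cell types also differed between libraries, and their part in these results was not tested. The summed level of the 7 enterocyte markers was 1039 to 4936 CPM over the QCM samples and 644 to 1648 CPM over those of SCM. The 5 Paneth markers summed to 510 to 2614 and 326 to 576 CPM, the 6 goblet markers to 629 to 1309 and 380 to 627 CPM, the 6 stem markers to 1077 to 2355 and 1488 to 2578 CPM, the 6 enteroendocrine markers to 118 to 177 and 37.8 to 118 CPM and the 5 tuft markers to 11.4 to 23.1 and 12.2 to 17.3 CPM. The 6 markers of fetal-type epithelium were at 44.6 to 90.4 CPM in QCM and 149 to 566 CPM in SCM. Fibroblast (6 genes), immune (5 of 6 genes measured) and endothelial (4 genes) markers each summed to at most 6.47 CPM in any sample. None of the measured genes was at 0 over all nuclei of both media together, and the immune markers summed to 0 CPM in the lowest SCM sample.

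Within cluster 8 estimates lay on both sides of 0. Alpi had a log2 ratio of 0.90 ± 0.58, Enpep 0.59 ± 0.34, Mme 0.24 ± 0.43, Dpp4 -0.03 ± 0.30, Sis -0.09 ± 0.46, Anpep -0.57 ± 0.48 and Lct -0.77 ± 0.62, and Treh had too few UMIs to be tested. No enzyme was called (edgeR's quasi-likelihood test with Benjamini-Hochberg adjustment, adjusted p = 1.00 for each) and none had an unadjusted p under 0.05, against 3.16% of 10011 genes, of which edgeR, DESeq2 and voom with limma called 0 and edgeR gave 316 an unadjusted p under 0.05. The values of the 7 overlapped between the media, and for Treh those of SCM (8.28, 6.49 and 5.97 CPM on 1, 4 and 8 UMIs) were all below those of QCM (24.5, 9.39 and 8.33 CPM on 67, 8 and 9 UMIs), as were those of 5.09% of 15230 genes with at least 10 UMIs in cluster 8. The estimate of Alpi was -0.32 without SCM replicate 2 and -0.21 without the deepest 6% of nuclei of each sample, and that of Enpep was 0.013 and 0.090. Without QCM replicate 1 Enpep was at 0.57 and Mme at 0.79, and without SCM replicate 1 they were at 0.76 and 0.078. Lct was at 0.53 without QCM replicate 1 and -0.88 without SCM replicate 1, Anpep at 0.056 and -0.43, Sis at 0.0014 and 0.24, Dpp4 at -0.057 and 0.21 and Alpi at 0.91 and 1.15.

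In the nuclei outside cluster 8 all 8 estimates were below 0, from -2.20 ± 1.01 for Lct and -1.96 ± 0.70 for Treh over -1.45 ± 0.87 for Alpi, -1.34 ± 0.67 for Mme, -1.05 ± 0.40 for Enpep, -0.95 ± 0.49 for Anpep and -0.86 ± 0.52 for Sis to -0.10 ± 0.23 for Dpp4. None was called (edgeR's quasi-likelihood test with Benjamini-Hochberg adjustment, 0 of 18898 genes called and 900 with an unadjusted p under 0.05). Without QCM replicate 1 Lct (0.21), Alpi (0.019) and Mme (0.015) were above 0, Anpep was at -0.17, Treh at -0.73, Enpep at -0.83, Sis at -0.71 and Dpp4 at -0.21. Without SCM replicate 1 Sis was at -0.43, Enpep at -0.75 and Dpp4 at 0.061, and the other 5 were between -2.21 and -1.14. The difference between the compartments was tested as the interaction of medium and compartment over 12 sums with the sample as a block. Cluster 8 had been made from these same counts, so the test cannot separate a differing medium effect from how nuclei were assigned. Relative to the other nuclei, the ratio of SCM to QCM in cluster 8 was higher by a log2 of 1.40 ± 0.31 for Enpep, 1.15 ± 0.30 for Mme, 0.75 ± 0.23 for Sis, 1.82 ± 0.64 for Alpi, 1.10 ± 0.37 for Lct, 0.65 ± 0.58 for Treh and 0.37 ± 0.32 for Anpep, and was -0.06 ± 0.21 for Dpp4. Of these estimates 7 were above 0, as were 44.3% of all genes, and 5 of 8 had an unadjusted p under 0.05, all with the ratio higher in cluster 8, as did 2.91% of 14401 genes in that direction and 5.69% (820) in either. By edgeR's quasi-likelihood test with Benjamini-Hochberg adjustment 0 genes were called, with adjusted p = 0.307 for Enpep, 0.367 for Mme, 0.535 for Sis, 0.652 for Lct and 0.668 for Alpi. DESeq2 and voom with limma also called 0.

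**Figure D5:**
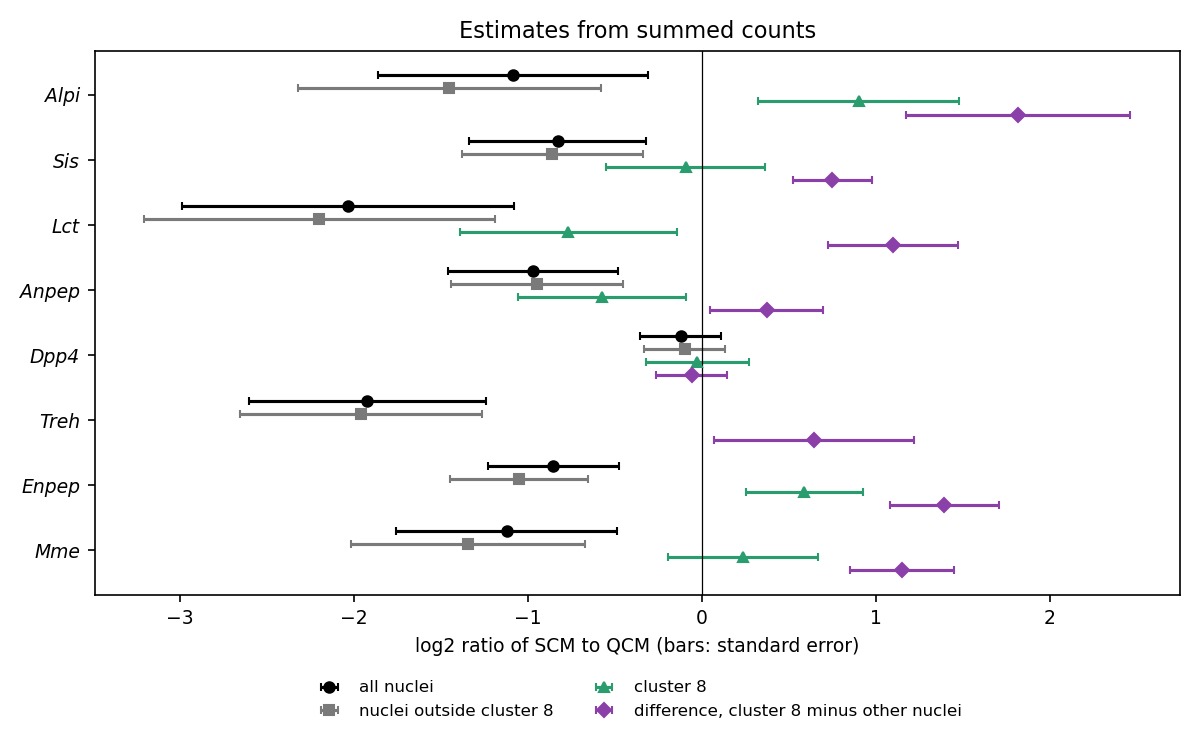
Log2 ratio of SCM to QCM with its standard error for each enzyme gene over all nuclei (black), outside cluster 8 (grey) and in cluster 8 (green), and the difference of cluster 8 from the other nuclei (purple). Estimates in cluster 8 lie to the right of those outside it for all genes tested in both, with purple marks above 0 except for Dpp4.

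This difference depended on which libraries entered. Without SCM replicate 1, the library with 11 nuclei in cluster 8, 132 of 18774 genes (0.703%) were called, among them Enpep (1.35 ± 0.25, adjusted p = 2.35e-05 by edgeR's quasi-likelihood test with Benjamini-Hochberg adjustment), Alpi (1.93 ± 0.36, adjusted p = 3.69e-05) and Mme (1.09 ± 0.23, adjusted p = 0.000928). Leaving out its shared barcodes gives the same fit, since fewer than 10 of its nuclei then remain in cluster 8. In this fit the p-values followed a normal curve, which takes the spread between samples as known, unlike in the fit of all 6 samples. The calls of this fit may therefore be too many. Without QCM replicate 1, 0 genes were called and the estimates were 1.23 ± 0.36 for Enpep, 0.69 ± 0.31 for Mme and 0.60 ± 0.63 for Alpi, with Lct at 0.38 and Treh at 0.32. Without SCM replicate 2, 8 genes were called, none of them an enzyme, and Enpep was at 0.76, Alpi at 0.56 and Anpep at -0.18. Without SCM replicate 3, 98 of 15051 genes (0.651%) were called with Enpep, Alpi, Mme and Sis among them, and without QCM replicate 2, 35 of 14981 (0.234%) with Enpep and Mme. Over 14 alternatives, of which 2 are this same fit without SCM replicate 1, Enpep and Mme were each above 0 in 14 and called in 6, with adjusted p between 2.35e-05 and 1.00 for Enpep and between 0.000928 and 1.00 for Mme, Alpi was called in 4, Sis in 2, and Lct, Anpep, Treh and Dpp4 in 0. In SCM replicate 2 the 5 highest nuclei of cluster 8 held 59.4% of its Enpep and 62.2% of its Mme UMIs there.

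Across the 13 clusters that could be fitted, 64 pairs of enzyme and cluster were tested, 0 were called by edgeR's quasi-likelihood test with Benjamini-Hochberg adjustment and 7 had an unadjusted p under 0.05 (10.9%), against 0 and 7490 of all 130109 pairs (5.76%). DESeq2 called 95 pairs and voom with limma 0, none of an enzyme. In the 12 clusters other than 8 the estimate was below 0 in 48 of 57 pairs, against 50.9% of all 120098 pairs of gene and cluster there. It was below 0 in 12 of 12 for Sis, 9 of 9 for Enpep, 9 of 9 for Anpep and 8 of 8 for Mme. All 9 exceptions were pairs of Dpp4, which was below 0 in 3 of 12. The pairs share samples and are not independent. Without QCM replicate 1 the estimate was below 0 in 42 of 54 pairs of the same 12 clusters, in 12 of 12 for Sis, 8 of 8 for Enpep, 7 of 9 for Anpep, 4 of 7 for Mme and 8 of 12 for Dpp4.

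The share of nuclei with at least 1 UMI of any of the 8, after thinning each nucleus to 1000 UMIs, was 53.5%, 41.5% and 45.9% in QCM and 21.2%, 38.2% and 42.6% in SCM. The means of 47.0% ± 6.0 and 34.0% ± 11.3 (SD, n = 3 each) gave p = 0.2 by an exact two-sided permutation test, and the difference of -13.0 percentage points shrank to -6.58 without SCM replicate 1. Sis alone had a difference of -11.9 points (34.5% and 22.5%), which was -5.93 without SCM replicate 1. For any of the 7 enzymes other than Sis the shares were 24.9%, 18.8% and 17.1% in QCM and 12.5%, 17.5% and 17.6% in SCM, a difference of -4.40 points with p = 0.3 by the same exact permutation test, which was -2.09 without QCM replicate 1 and -2.71 without SCM replicate 1. Thinning left out 2366 QCM and 813 SCM nuclei of fewer UMIs, and without it the means were 75.5% and 60.4%. In the tuft-like cluster 11 the thinned share was 38.9% ± 4.8 (5 samples, median depth 2080.5 UMIs) and in cluster 8 it was 74.0% ± 9.8 (6 samples, 2366.5 UMIs). The shares of QCM replicate 2, SCM replicate 2 and SCM replicate 3 over all nuclei lay within the range of cluster 11 over 5 samples (33.7% to 43.9%). QCM replicates 1 and 3 lay above that range and SCM replicate 1 under it. SCM replicate 1 had fewer than 10 nuclei in cluster 11 and is not in the range, so its own level there was not measured. The range was not taken sample by sample. For Enpep the thinned share was 2.44%, 1.92% and 1.76% in QCM and 0.68%, 1.11% and 1.62% in SCM, all lower in SCM, with p = 0.1 by the exact permutation test, the smallest the design allows. Its share in cluster 11 was 1.28% ± 0.68. By the same exact permutation test p was 0.2 for Sis, 0.3 for Anpep and Treh, 0.6 for Mme, 0.7 for Alpi and 0.9 for Dpp4. It was higher still for Lct. The part of all genes whose thinned shares do not overlap was not counted.

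Other genes of the brush border were read from lists. Of 17 other brush border hydrolases 13 were tested over all nuclei, 0 were called in either direction by edgeR's quasi-likelihood test, 10 had an estimate below 0, and the median was -0.44 against -0.01 for all genes. Without QCM replicate 1 the median was -0.0080, with 7 of 13 below 0. With all samples the lowest were Dpep1, a membrane dipeptidase (-2.51 ± 0.97), and Ggt1, gamma-glutamyltransferase (-2.49 ± 1.00), for which QCM replicate 1 held 23.2 and 32.7 CPM and the other samples at most 4.57 and 7.18 CPM. The highest were Nt5e, the ectonucleotidase CD73 (0.53 ± 0.40), and Mep1b, the meprin beta subunit (0.10 ± 0.51). Mgam, maltase-glucoamylase, the other large disaccharidase of the membrane, was at 356, 526 and 435 CPM in QCM and at 409, 569 and 491 CPM in SCM, a log2 ratio of 0.01 ± 0.22.

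Of 14 genes of microvillus structure all 14 were tested, 0 were called and 10 estimates were below 0, with a median of -0.15. Without QCM replicate 1 the median was 0.0010, with 7 of 14 below 0. With all samples the actin bundler Espn was lowest (-1.06 ± 0.42), with the intermicrovillar cadherin Cdhr5 (-0.83 ± 0.36), and Eps8 (0.31 ± 0.20) and the motor Myo7b (0.29 ± 0.18) were highest. Of 13 enterocyte transcription factors all 13 were tested, 0 were called and 8 estimates were below 0, with a median of -0.10, and without QCM replicate 1 with 7 below 0 and a median of -0.047. Creb3l3 (-1.02 ± 0.55) and Maf (-0.56 ± 0.76) were lowest, and Hnf4g was at 0.14 ± 0.21. In the interaction with cluster 8 none of the 3 lists had a called gene with all samples. Without SCM replicate 1 the called genes, all relatively higher in cluster 8 in SCM, included the hydrolases Mep1b, Ggt1, Ace and Dpep1, 5 genes of the microvillus (Myo1a, Cdhr2, Cdhr5, Tmigd1 and Espn) and Creb3l3, named here after their values were seen, against 0.703% of all genes.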

How the data were processed

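Single-nucleus RNA was captured with 10x Genomics 3′ v3.1 reagents from 6 organoid samples, 3 per medium. The deposited files hold UMI counts per gene and nucleus, which the authors made with Cell Ranger (version 2.1.1 and mm10 in the submitters' processing notes), after discarding nuclei beyond 3 absolute deviations of the sample in mitochondrial share (above), reads or features (below). Whether intronic reads were counted is not given in the sources used here. The cluster numbers are the authors' own. Normalized values and the table of the whole series were not used here. The enzymes and the gene lists were chosen with earlier results of these data known.

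Gene symbols and coordinates came from GENCODE M21 (31258 of 31319 identifiers matched), and promoters from RefSeq (GRCm38.p6). Counts were summed per sample, and per sample and cluster with at least 10 nuclei, and tested with edgeR 4.0.16 (TMM, filterByExpr, quasi-likelihood test, Benjamini-Hochberg adjustment, threshold 0.05). A pseudocount of 1 CPM was used for the likeness over clusters only. DESeq2, voom with limma, other scalings, no filter, left-out samples and nuclei and a covariate were tried as alternatives. No doublet caller was run, and the deepest 6% of nuclei were left out in an alternative instead. Shares were expected values after thinning to 1000 UMIs. Neighbouring clusters were said to differ beyond their spread when their means differed by more than the larger SD. A simulated set of 200 genes changed 4-fold was recovered for 190 genes over all nuclei (19118 genes) and for 37 in the interaction (14260 genes). The simulation gave every gene a dispersion of 0.1 and held no library that stood apart. It therefore does not give the recovery at the spread of these samples. The total of UMIs per sample was 4071926 to 41035733. Named genes are the 8 enzymes, Akp3, Mgam, the 2 highest and 2 lowest of each list where none was called, and the 8 genes most alike over clusters with at least 50 nuclei, among genes with at least 500 UMIs. Some results under this rule are not reported here.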

Additional observations from a re-analysis of the deposited data

How the results depend on the processing

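Over all nuclei the count of called genes was 0 in each alternative run except DESeq2 (20 genes), and stayed 0 without any 1 sample. Within clusters 95 pairs of gene and cluster were called by DESeq2, 5 with library size alone as the scaling, 3135 with no filter on low counts (0.984% of 318724, 9 of them pairs of Lct, Mme, Sis or Treh), 2 in replicates 2 and 3 alone and 0 to 36 without 1 sample. Where samples were left out, clusters 13 or 14 were in some cases fitted too, with a single SCM sample that was assumed to vary like the others. In the interaction with cluster 8 the count was 74 with no filter (0.236% of genes, with Alpi, Enpep, Mme and Sis among them), 38 in replicates 2 and 3 alone (0.207%, with Enpep), 15 without the deepest 6% of nuclei (0.119%, with Mme), 132 without the shared barcodes and 0 to 132 without 1 sample. In the fits with no filter and without the shared barcodes the p-values took the spread between samples as known, so these calls may be too many. Of the 8 genes most like the summed enzymes over clusters, 4 remained when clusters were taken per sample. The difference in the share of nuclei with an enzyme UMI was -17.2 to -6.58 percentage points without 1 sample.

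The replicate numbers were checked for pairing: the deviations of same-numbered samples from their group means correlated at 0.30, 0.51 and -0.07. With 3 samples per medium these values cannot settle whether the numbers pair the samples. With the replicate number as a block 0 genes were called over all nuclei and 248 pairs within clusters, none of an enzyme. Not every sample correlated best with its own number.

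Single estimates that changed sign were the following. Over all nuclei, in replicates 2 and 3 alone, Alpi was at 0.34 and Lct at 0.19. With the ribosomal share as covariate, an alternative chosen after seeing the data as was leaving out shared barcodes, Alpi was at 1.17, Lct at 0.55, Anpep at 0.24 and Mme at 0.51. With library size alone, which moved the median of all genes from -0.01 to 0.14 and the share of genes lower in SCM from 51.4% to 35.9%, Dpp4 was at 0.0067. Without 1 sample Alpi ranged from -1.57 to 0.090, Lct from -2.54 to 0.23, Dpp4 from -0.29 to 0.051 and Mme from -1.53 to 0.13. Outside cluster 8, in fits added after seeing the data, leaving out 1 sample gave ranges of -1.96 to 0.019 for Alpi, -2.69 to 0.21 for Lct, -0.26 to 0.072 for Dpp4 and -1.76 to 0.015 for Mme. Within cluster 8, in replicates 2 and 3 alone, Sis was at 0.33, Lct at 0.42, Anpep at 0.18 and Dpp4 at 0.17. Without the shared barcodes Sis was at 0.24 and Dpp4 at 0.21, with the covariate Lct was at 0.73 and Anpep at 0.031, and without the deepest nuclei Alpi was at -0.21 and Dpp4 at 0.048. Without 1 sample Alpi ranged from -0.32 to 1.32, Sis from -0.47 to 0.24, Lct from -1.13 to 0.53, Anpep from -1.22 to 0.056, Dpp4 from -0.22 to 0.21 and Mme from -0.080 to 0.79. In the interaction Dpp4 was at 0.011 with RLE size factors, 0.21 in replicates 2 and 3 alone and 0.030 without the shared barcodes, and without 1 sample it ranged from -0.19 to 0.12 and Anpep from -0.18 to 0.81. The causes were not tested. In all, 132 of 144 values over all nuclei, 93 of 112 in cluster 8 and 87 of 112 in the interaction kept their direction and their side of the threshold. Depth limits the values of cluster 8, which had 97 Treh and 245 Alpi UMIs in all.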
